A study of Rattus norvegicus with 25 samples.

Results

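The rat miR-143 and miR-145 cluster was followed through its 4 mature products, miR-143-3p, miR-143-5p, miR-145-5p and miR-145-3p, in small RNA sequencing of muscle mitochondria. The members were taken by name, as the rows of both arms of both precursors, and are 4 of the 764 mature miRNAs in the table. All groups were male Wistar-Kyoto rats that arrived at 4 weeks of age and were allocated at random at 5 weeks. The trained group, 13 rats, ran on a treadmill on 5 days per week for 4 weeks. The sedentary group, 12 rats, was handled alike and stood on a treadmill at rest. The mitochondria came from red gastrocnemius, a muscle of the calf, and were treated with RNase A before RNA extraction. Each library carries its own number in its title, called the rat number below, and is named by group and number. Neither whole muscle nor untreated mitochondria were sequenced among these 25 libraries, so a count does not place a miRNA inside the organelle.

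A miRNA precursor is a hairpin whose 5' and 3' arms can each give a mature strand. The strand kept by the silencing complex is called the guide, and pairing of its seed, bases 2 to 8, with a messenger RNA is what mainly selects targets. miR-143 and miR-145 are made from a shared primary transcript and are best known in smooth muscle, where serum response factor and myocardin drive them. Work in mice places both in the upkeep of the contractile state of vascular smooth muscle, with Klf4, Klf5 and Elk1 among the described targets. miR-143-3p and miR-145-5p are the usual guide strands, and miR-143-5p and miR-145-3p the usual passenger strands.

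The mature sequences are shown because each count below belongs to 1 of them and because the seeds set the members apart. They come from RefSeq (GRCr8), 5' to 3', with the seed in capitals.
rno-miR-143-3p: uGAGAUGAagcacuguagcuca
rno-miR-143-5p: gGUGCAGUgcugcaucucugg
rno-miR-145-5p: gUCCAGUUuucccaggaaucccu
rno-miR-145-3p: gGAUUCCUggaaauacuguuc
The 4 seeds differ from each other, and no other among the 724 mature rat miRNAs of the RefSeq table shares a seed with any of them, nor bases 2 to 7. The strands are 22, 21, 23 and 21 bases long in the order printed, and their GC content is 45.5%, 61.9%, 52.2% and 42.9%.

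The hairpins are shown next, with both mature arms in capitals, since the comparison of arms rests on them.
Mir143: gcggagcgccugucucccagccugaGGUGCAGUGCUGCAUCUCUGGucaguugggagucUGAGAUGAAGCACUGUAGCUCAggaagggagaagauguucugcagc
Mir145: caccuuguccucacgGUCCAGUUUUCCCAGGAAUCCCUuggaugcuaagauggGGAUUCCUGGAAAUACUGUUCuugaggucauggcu
In RefSeq's GRCr8 entries the Mir143 hairpin, 105 bases, lies on the minus strand at chr18:57371349-57371453 and the Mir145 hairpin, 88 bases, on the same strand at chr18:57369983-57370070. The sources used here do not give the build behind the authors' counts. There are 1278 bases between the hairpins, and both lie within Carmn, a long noncoding RNA gene also named Mir143hg.

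Total counts ranged from 26793 to 202388 in trained and from 12181 to 186006 in sedentary libraries, and 109 ± 12.2 miRNAs had a count in a trained library, against 118 ± 25.3 in a sedentary one (mean ± SD over 13 and 12 libraries). A count of 0 therefore allowed up to 14.8 to 246 CPM, the count scaled to the library total, depending on the library. That limit is 3 counts of the total. Counts are of reads, since no molecular identifiers are named, so limits and intervals cover counting error only. Of 6 miRNAs listed for skeletal myofibres, 5 had a count. miR-208b-3p was at 0 in all libraries and miR-499-5p had a count in 5, while miR-1-3p, which acts in myoblast differentiation, had a count in every library. None of the marker lists was for smooth muscle, so the label of the cluster could not be checked against other markers.

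The cluster was represented almost wholly by miR-143-3p. It held 55782 of the cluster's 56174 counts over the 25 libraries, or 99.3% (exact 95% interval 99.23% to 99.37%). miR-145-5p, the other guide, had 212 counts (0.377%), miR-143-5p had 172 (0.306%) and miR-145-3p had 8 (0.0142%). miR-143-3p had a count in all 25 libraries and was the 10th most abundant of all entries, with 2.66% of the 2094773 counts. Some entries repeat nearly the same counts, and with 16 such rows left out it ranked 8th, with 3.40% of counts. By contrast miR-145-5p had a count in 9 libraries, miR-143-5p in 5 and miR-145-3p in 1.

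**Figure D1:**
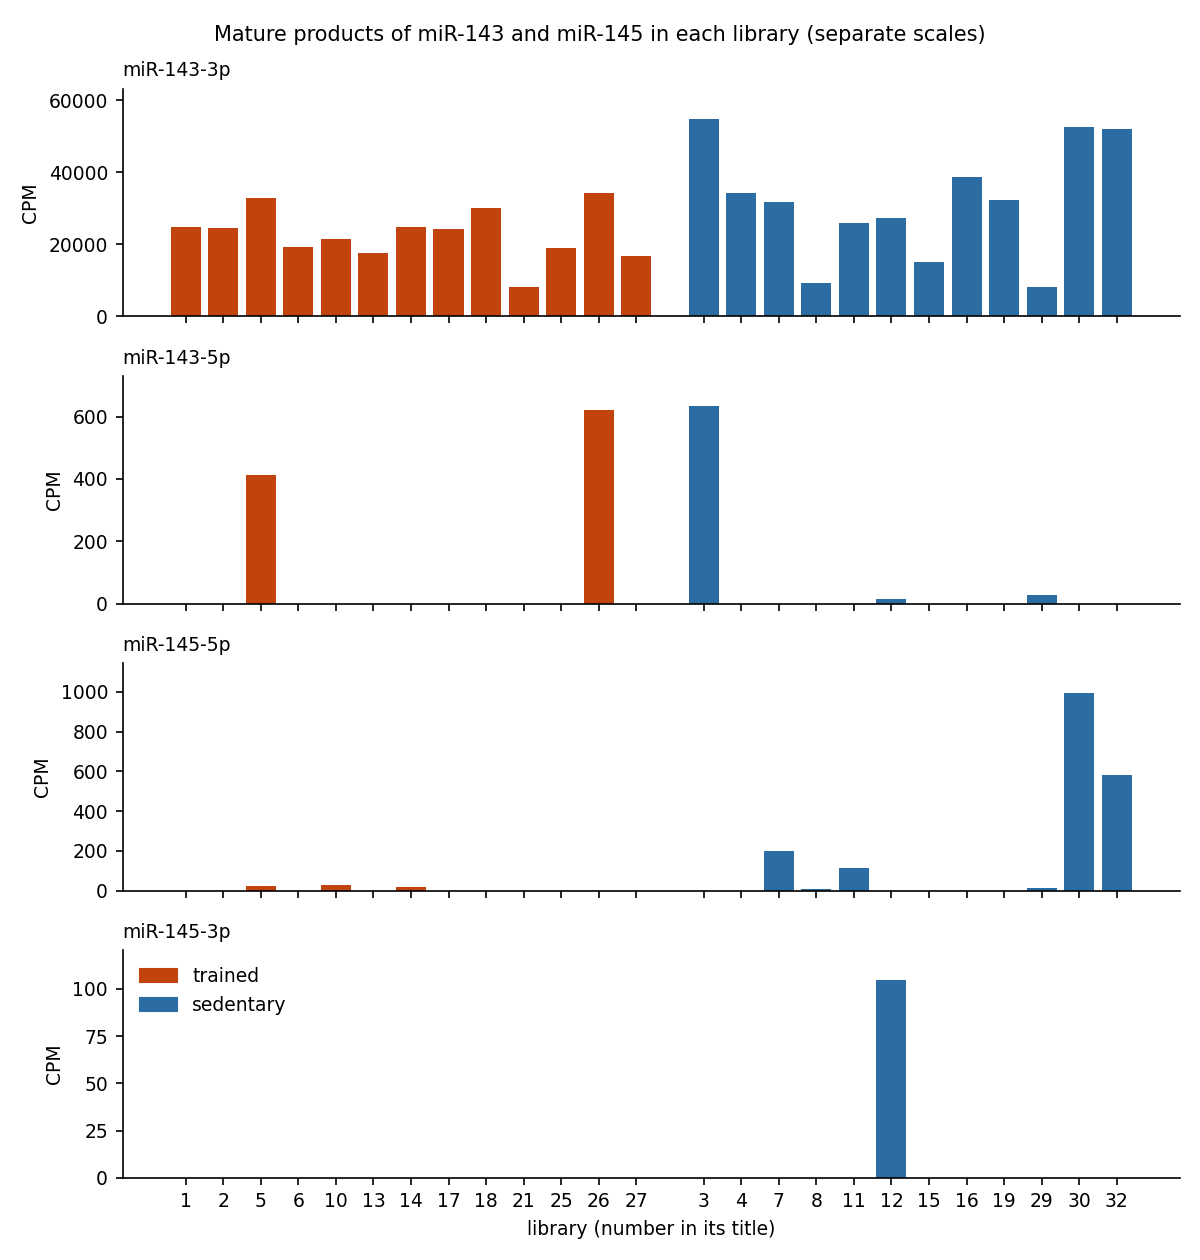
CPM of each mature product in each library, trained libraries left and sedentary libraries right, with a separate vertical scale per panel. miR-143-3p is present in all 25 libraries, whereas miR-143-5p, miR-145-5p and miR-145-3p appear in 5, 9 and 1, and the highest miR-145-5p values are in sedentary 30 and sedentary 32.

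miR-143-3p, the main guide of the cluster, varied more among sedentary than among trained rats. It had 8054 CPM in the lowest trained library, 24175 CPM at the median and 34139 CPM in the highest, and 8271 CPM in the lowest sedentary library, 32127 CPM at the median and 54853 CPM in the highest. The groups overlapped at the low end, and 5 sedentary libraries lay above every trained one. These were sedentary 3, 30, 32, 16 and 4, of which sedentary 4, at 34166 CPM, was barely above trained 26. The mean ± SD was 22892 ± 7087 CPM over the 13 trained and 31839 ± 16019 CPM over the 12 sedentary libraries. The SD was 31.0% of the mean in trained and 50.3% in sedentary libraries, and the difference in spread was not tested. Within a library miR-143-3p ranked between 9 and 16 in trained and between 4 and 18 in sedentary rats.

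**Figure D2:**
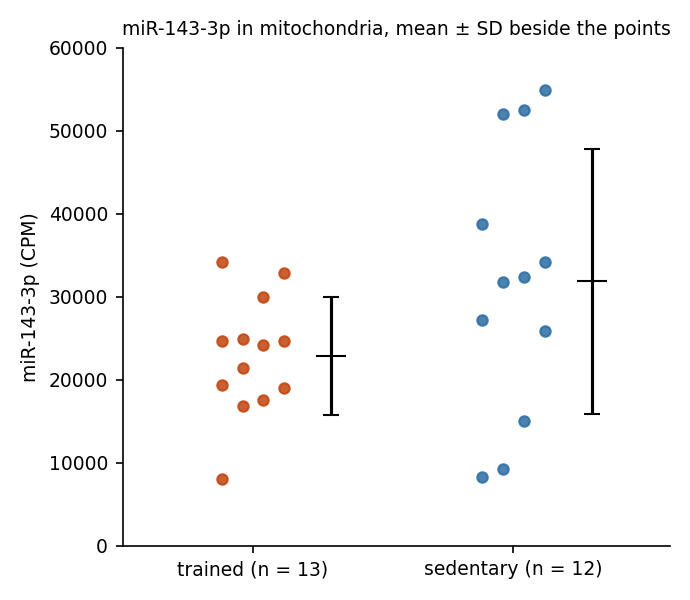
miR-143-3p in each library in CPM, trained (n = 13) left of sedentary (n = 12), with the mean and SD beside the points. All trained libraries lie between 8054 and 34139 CPM, and the upper sedentary libraries reach 54853 CPM.

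The design asks whether training altered the miRNAs of muscle mitochondria. miR-143-3p did not pass the test. With the edgeR quasi-likelihood test and TMM scaling, its log2 fold change, trained minus sedentary, was -0.10 (SE 0.26, 95% interval -0.61 to 0.42, adjusted p = 0.975 by Benjamini-Hochberg over 76 tested miRNAs). miR-143-3p was the only member among the 76, since the others were too scarce for the filter on low counts. Of the 76, 0% were called, and 1 had an unadjusted p below 0.05. DESeq2 and limma-voom also called 0, with 8 of 235 and 14 of 76 below an unadjusted 0.05. The size of the difference depended on the scaling: it was -0.48 when libraries were scaled by total counts alone (adjusted p = 0.930), where the median of all tested miRNAs was itself at -0.29. In the authors' normalized values miR-143-3p averaged 1444 ± 433 over the 13 trained and 1724 ± 737 over the 12 sedentary libraries (mean ± SD).

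The direction of the edgeR fold change was not the same in both ranges of rat numbers. For rat numbers 1 to 13 the log2 fold change of miR-143-3p was -0.35 (SE 0.28), and for numbers 14 to 32 it was 0.10 (SE 0.44). The median of all tested miRNAs was -0.01 and 0.10 in these fits. The difference between the ranges was 0.62 in a single edgeR fit (interaction term, SE 0.49, adjusted p = 0.705). In CPM miR-143-3p averaged lower in trained than in sedentary rats in both ranges. The means were 23446 against 30533 for numbers 1 to 13, and 22417 against 33146 for numbers 14 to 32. The authors' normalized values were also lower in trained rats in both, at 1325 against 1710 and 1547 against 1738. The sources used here do not say what the number stands for.

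**Figure D3:**
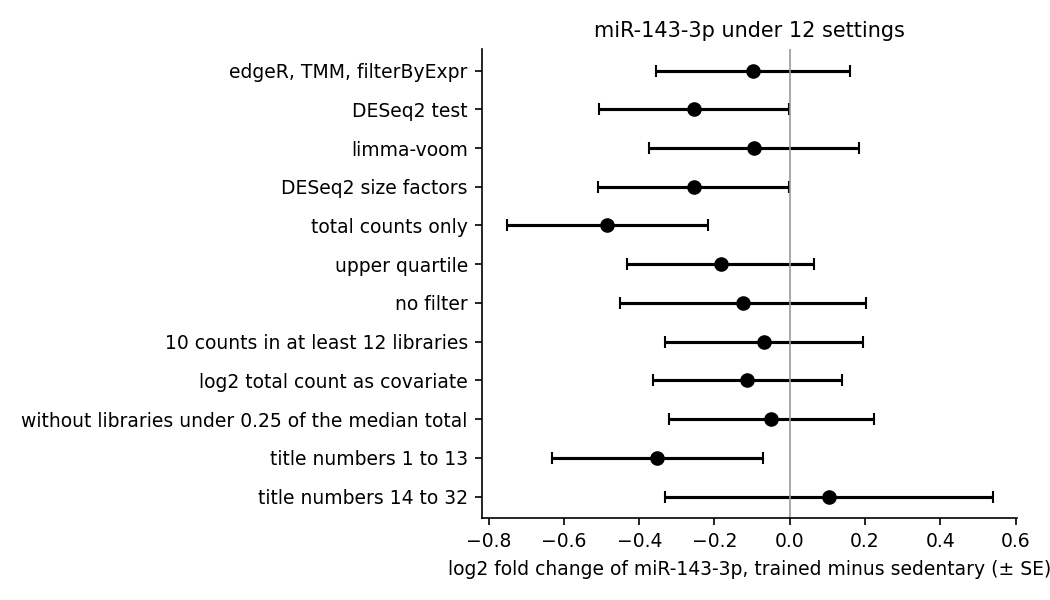
Log2 fold change of miR-143-3p, trained minus sedentary, with its SE, under 12 settings of test, scaling, filter and libraries. The values run from -0.48 with total counts only to 0.10 for rat numbers 14 to 32.

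miR-145-5p, the other guide, was scarce, and most of its counts came from a few sedentary rats. Among trained libraries it had 1 count in trained 5, 1 in trained 10, 2 in trained 14 and 0 in the other 10. Among sedentary libraries it had 106 counts in sedentary 30, 55 in sedentary 32, 37 in sedentary 7, 8 in sedentary 11 and 1 each in sedentary 8 and 29, with 0 in the other 6. The groups overlapped at 0 and at the low counts, and only sedentary 30, 32, 7 and 11 were above every trained library. Of the 212 counts, 198 (93.4%) came from sedentary 30, 32 and 7, and sedentary 30 alone held 50%. The mean ± SD was 5.49 ± 10.8 CPM over the 13 trained and 159 ± 312 CPM over the 12 sedentary libraries.

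No test of the level of miR-145-5p passed after adjustment over all miRNAs. A two-sided permutation test of CPM, run on all 260 miRNAs with a count, gave p = 0.0304 and an adjusted p of 0.901. In that test 0% of the 260 were called after adjustment, and 3.08% had an unadjusted p below 0.05, all of them lower in trained rats. Mean CPM was lower in trained rats for 162 of the 260 and higher for 98. Counts of at least 1 were found in 3 of 13 trained and 6 of 12 sedentary libraries (Fisher's exact test, two-sided, p = 0.226, adjusted p = 0.679 over 6 tests). Counts of at least 10 were found in 0 of 13 trained and 3 of 12 sedentary libraries (p = 0.0957, adjusted p = 0.574). Without sedentary 30 the difference in mean CPM was -78.0, against -153.9 with all libraries.

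The number of miRNAs detected moved with miR-145-5p. Its 3 libraries with at least 10 counts had totals of 94573 to 186006 and 146 to 154 miRNAs with a count, against 83 to 138 in the other 22. Their total counts lay inside the range of the others. The part that the number detected has in the result was not tested. The deepest library, trained 27, had 202388 counts and 0 of miR-145-5p. In the same 3 libraries miR-126a-3p, an endothelial miRNA and the detected member of 2 listed, held 0.333% to 1.80% of counts, against 0.152% to 0.855% in trained libraries and 0.249% to 1.33% in the other sedentary ones. The 4 fibroblast-linked miRNAs, miR-199a-3p, miR-199a-5p, miR-214-3p and miR-152-3p, together held 0.856% to 2.10% in those 3 libraries, 0.143% to 1.30% in trained and 0.0657% to 1.82% in the other sedentary libraries. The 6 myofibre miRNAs together held 9.78% to 12.9% there, 11.0% to 27.1% in trained and 9.15% to 32.5% in the other sedentary libraries. Both miR-133a-3p and miR-133b-3p, whose counts are nearly the same, enter that sum. Of 3 miRNAs listed for erythrocytes, only miR-486 was detected. It held 1.44% to 4.04% there, 1.01% to 5.27% in trained and 1.00% to 4.75% in the other sedentary libraries. The 5 leukocyte miRNAs together held 0.0148% to 0.0225% there, 0% to 0.114% in trained and 0% to 0.238% in the other sedentary libraries. These parts in the result were not tested either. The libraries are of isolated mitochondria, so these shares do not measure which cells make up the muscle. Fewer cells of a type and less RNA per cell cannot be told apart in them either.

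The balance of both precursors within a library does not depend on the scaling between libraries. miR-145-5p per 100 counts of miR-143-3p was 0.137 in trained 10, 0.0783 in trained 5 and 0.0662 in trained 14, and 1.89 in sedentary 30, 1.12 in sedentary 32, 0.625 in sedentary 7, 0.442 in sedentary 11, 0.159 in sedentary 29 and 0.115 in sedentary 8. All other libraries of both groups had no miR-145-5p. Libraries with much miR-143-3p lay at both ends of the ratio. Sedentary 3 had 5879 counts of miR-143-3p and 0 of miR-145-5p, which allows up to 0.0510 per 100, whereas sedentary 30, with a similar total, had 5595 and 106. Trained 26 had 4681 counts of miR-143-3p and 0 of miR-145-5p, which allows up to 0.0641 per 100. Libraries at 0 with fewer counts of miR-143-3p allowed more, up to 0.576 in trained 6 and 0.759 in sedentary 19.

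miR-145, with its arms added, took a smaller part of the cluster's counts in trained rats. Its share was 0.0215% ± 0.0437 over the 13 trained and 0.390% ± 0.574 over the 12 sedentary libraries (mean ± SD), a difference of -0.369 percentage points. A two-sided permutation test gave p = 0.00478 for it, or 0.0191 after Benjamini-Hochberg adjustment over 4 measures of the cluster. The difference in group medians was smaller, at -0.137 points (adjusted p = 0.0109). The same kind of share was not tested for other clusters. Of all 260 miRNAs with a count, 162 had a lower mean CPM in trained rats and 98 a higher one. The other 3 measures are the log2 ratio of the guides, the 5p share of miR-143 and the cluster's share of all counts. That last share, a sum over the members and so only described, was 2.30% ± 0.722 in trained and 3.21% ± 1.63 in sedentary libraries (mean ± SD), a difference of -0.909 points. The share of miR-145 was above 0 in 3 of 13 trained and 7 of 12 sedentary libraries, so the groups overlapped at 0. In sedentary 12 it came from miR-145-3p alone. Zeros in trained 6, 1 and 13 allowed up to 0.576, 0.450 and 0.393 of miR-145-5p per 100 counts of miR-143-3p. These limits lie above the sedentary mean share of 0.390%. The part of depth in this share was not tested. The difference in the miR-145 share was -0.224 points for rat numbers 1 to 13 (exact permutation test, p = 0.106, adjusted p = 0.141). For numbers 14 to 32 it was -0.511 points (exact permutation test, p = 0.0699, adjusted p = 0.107), so the call was lost in each range. These adjustments kept the p-values of the other 3 measures from all libraries. The difference ran from -0.404 to -0.235 points when each library was left out, and was smallest without sedentary 30. The call held in each of these 25 permutation tests, with adjusted p from 0.00968 to 0.0459, the highest just below the threshold.

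The log2 ratio of miR-143-3p to miR-145-5p, which weights the libraries differently, did not pass the same threshold. With 0.5 added to each count it was 11.1 ± 1.29 over the 13 trained and 9.47 ± 2.39 over the 12 sedentary libraries (mean ± SD). The difference was 1.64, with p = 0.0427 in the two-sided permutation test and 0.0854 after adjustment over the same 4 measures. It passed without sedentary 3 (2.00, adjusted p = 0.0201) and without sedentary 12 (1.87, adjusted p = 0.0455). It was -0.06 for rat numbers 1 to 13 and 3.18 for numbers 14 to 32. Where miR-145-5p is at 0, this ratio also rises with the depth of the library, and depth ran opposite ways in the ranges. Total counts averaged 34327 in trained and 94059 in sedentary libraries for numbers 1 to 13, and 133549 in trained and 64936 in sedentary libraries for numbers 14 to 32. The part of depth in these values was not tested.

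miR-143-5p, the passenger strand, was likewise concentrated in a few libraries. It had 85 counts in trained 26 and 16 in trained 5, and 68 in sedentary 3, 2 in sedentary 29 and 1 in sedentary 12. The other 11 trained and 9 sedentary libraries had 0. The groups overlapped, with high libraries in each. Trained 26, trained 5 and sedentary 3 held 98.3% of its counts, and none of these 3 was among the 3 libraries rich in miR-145-5p. Whether these sets overlap less than random sets of 3 libraries would was not tested. The 5p strand was 1.78% of miR-143 counts in trained 26 (exact 95% interval 1.43% to 2.20%), 1.24% in trained 5 (0.709% to 2.00%) and 1.14% in sedentary 3 (0.889% to 1.45%). It was 0 of 5920 in sedentary 7, where the upper limit of the same interval was 0.0623%.

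The arm balance of miR-143 did not pass the test of training. The 5p share was 0.232% ± 0.578 over the 13 trained and 0.126% ± 0.333 over the 12 sedentary libraries (mean ± SD), with p = 0.676 before and after adjustment (two-sided permutation test). The direction rested on 1 library: the difference was 0.107 points with all libraries and -0.0226 without trained 26. The direction rested on few libraries in CPM as well. miR-143-5p averaged 79.3 ± 198 over the 13 trained and 56.2 ± 182 over the 12 sedentary libraries (mean ± SD, CPM), with an adjusted p of 1 over the 260 miRNAs (permutation test). The difference of 23.2 CPM became -4.49 without trained 5, -21.9 without trained 26 and 75.7 without sedentary 3.

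miR-145-3p, the other passenger strand, had 8 counts, all in sedentary 12, where miR-145-5p was at 0. All 13 trained and the other 11 sedentary libraries had 0. Since no trained library reached 10 counts of miR-145, its arm balance could not be compared between the groups at that depth. Without a filter on low counts, edgeR gave miR-145-3p a log2 fold change of -2.80 (SE 0.87, adjusted p = 0.00879), a value that rests on those 8 counts in 1 library, in a setting that called 66 of 260 miRNAs. Under DESeq2 the adjusted p of miR-145-3p was 0.989.

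Counts confined to a few libraries were common at this abundance. Apart from the members, 55 miRNAs had between 100 and 400 counts in sum. They had a count in a median of 5 libraries, between 1 and 17, and a median of 56.5% of their counts came from a single library. Of the 55, 51 were seen in 9 libraries or fewer, as miR-145-5p was, and 32 in 5 or fewer, as miR-143-5p was.

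The imbalance of the guides was set beside other clustered miRNAs. Over all libraries miR-143-3p outnumbered miR-145-5p 263-fold. The counts behind this were 24258 to 4 in trained and 31524 to 208, or 152-fold, in sedentary libraries, and the ratio over all libraries was 473-fold without sedentary 30. For 9 other listed pairs in which both guides had at least 100 counts, the higher exceeded the lower by a median of 8.78-fold and none by more than 263-fold. The nearest of these 9 were miR-1-3p over miR-133a-3p, 66.2-fold, and miR-206-3p over miR-133b-3p, 44.4-fold, both pairs of muscle miRNAs. The entries of miR-133a-3p and miR-133b-3p hold nearly the same counts (3645 and 3632), so these pairs are not independent cases. miR-23b-3p and miR-27b-3p differed 24.1-fold, while miR-221-3p and miR-222-3p, linked to smooth muscle growth, differed 1.49-fold. The cut at 100 counts left out 6 pairs in which only 1 guide reached it. Among them miR-25-3p exceeded miR-93-5p 110-fold (2740 to 25) and miR-191a-5p exceeded miR-425-5p 61.7-fold. In the other 4 the partner was at 0, such as miR-136-5p beside miR-127-3p with 28542 counts, so no ratio can be given. Different sequences can be ligated and counted with different efficiency, so these ratios are of reads and not of molecules.

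**Figure D4:**
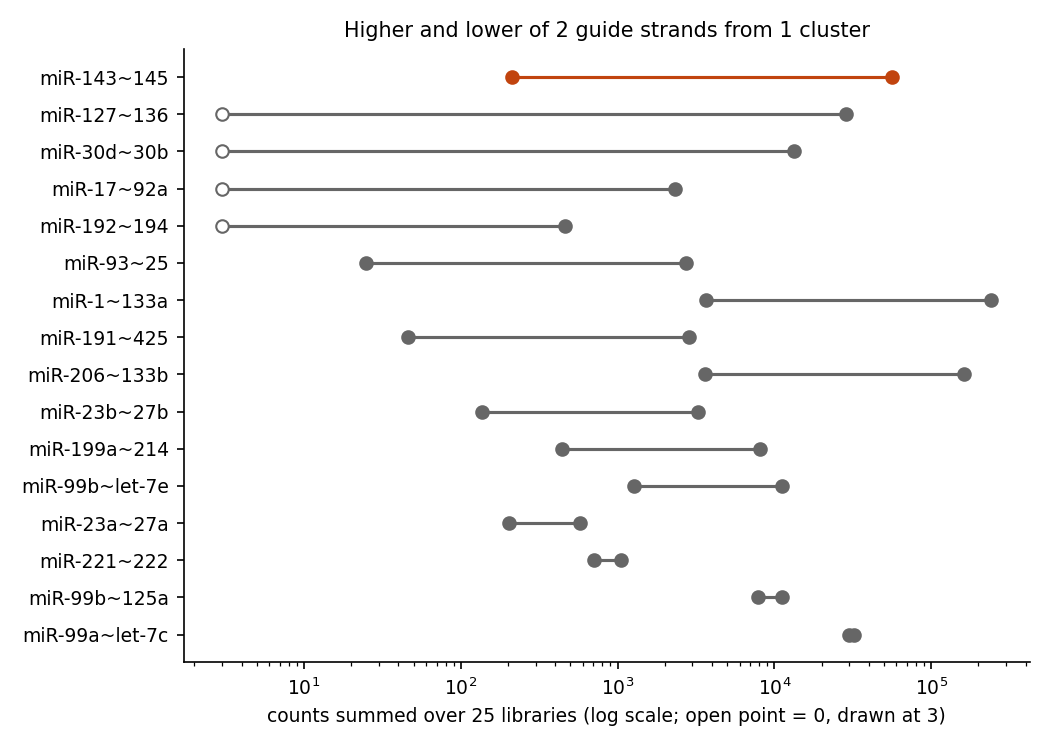
Counts summed over 25 libraries for the higher and the lower guide strand of each cluster pair, on a log scale, with open points for a guide at 0 drawn at 3. miR-143-3p (55782) and miR-145-5p (212), at the top in orange, lie 263-fold apart, farther than any other pair in which both guides had at least 100 counts.

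The arms were also set beside those of other precursors. Among 111 precursors with both arms listed and at least 100 counts, the scarcer arm held a median of 0% of the counts, with quartiles of 0% and 0.942%, and 77 had none. The scarcer arm held 0.307% for miR-143 and 3.64% for miR-145, where 80 and 90 of these precursors lay lower. The value for miR-145 was above the upper quartile and rests on the 8 counts of sedentary 12, without which it was 0%. The 3p arm was the larger one in 54 of the 111, as it was for miR-143.

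No test of a relation between the members' levels across the 25 libraries passed. With a count of miR-145-5p in 9 libraries and of miR-143-5p in 5, most values were tied at 0. These tests could thus hardly detect a relation. For log2(CPM + 1) of miR-143-3p and miR-145-5p, Pearson's r was 0.26 (permutation test, adjusted p = 0.360 over 7 pairs) and Spearman's rho 0.20 (adjusted p = 0.460). Without the 2 libraries farthest from the median of miR-143-3p, trained 21 and sedentary 29, r was 0.32. miR-143-3p and miR-143-5p gave r of 0.23 (adjusted p = 0.387) and rho of 0.26 (adjusted p = 0.364). For this pair r was 0.52 within trained and 0.04 within sedentary libraries, and 0.60 for rat numbers 1 to 13 against -0.07 for numbers 14 to 32.

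The miRNA whose levels were most like those of miR-143-3p was miR-10b-5p, a miRNA encoded in a Hox cluster. Spearman's rho over the 25 libraries was 0.77, the highest of the 75 other tested miRNAs, whose median rho was 0.25. It was 0.55 within trained and 0.92 within sedentary libraries, and 0.48 for rat numbers 1 to 13 and 0.93 for numbers 14 to 32. miR-10b-5p had 689 CPM in the lowest trained library, 6084 CPM at the median and 13863 CPM in the highest, and 644 CPM in the lowest sedentary library, 10143 CPM at the median and 41196 CPM in the highest. The order of the groups was thus like that of miR-143-3p, with wide overlap. Next came miR-146b-5p, with a rho of 0.56, and miR-30d-5p, with 0.55. On the authors' normalized values rho was 0.65 for miR-10b-5p, 0.45 for miR-146b-5p and 0.18 for miR-30d-5p, and for miR-30d-5p it was 0.13 for rat numbers 1 to 13 and 0.81 for numbers 14 to 32. These values are descriptions, since all are shares of the same library totals.

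miR-1-3p ran opposite to miR-143-3p. It had 70022 CPM in the lowest trained library, 128448 CPM at the median and 186928 CPM in the highest, and 51317 CPM in the lowest sedentary library, 76345 CPM at the median and 168012 CPM in the highest. Pearson's r with miR-143-3p was -0.62 (permutation test, p = 0.00089, adjusted p = 0.00623 over 7 pairs) and rho -0.62 (adjusted p = 0.00826). Without trained 21 and sedentary 29, r was -0.50. It was -0.36 within trained and -0.72 within sedentary libraries, and -0.86 for rat numbers 1 to 13 and -0.68 for numbers 14 to 32. In the authors' normalized values r was -0.37 (adjusted p = 0.167), so the relation did not pass on that scale. A miRNA that takes a large part of a library, as miR-1-3p did with 11.5% of all counts, lowers the share left to all others. These shares are thus not independent, and the permutation p-values do not allow for that. miR-3571, whose counts are nearly those of miR-1-3p, tied with it for the lowest rho, -0.62, and is uncertain for that reason.

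**Figure D5:**
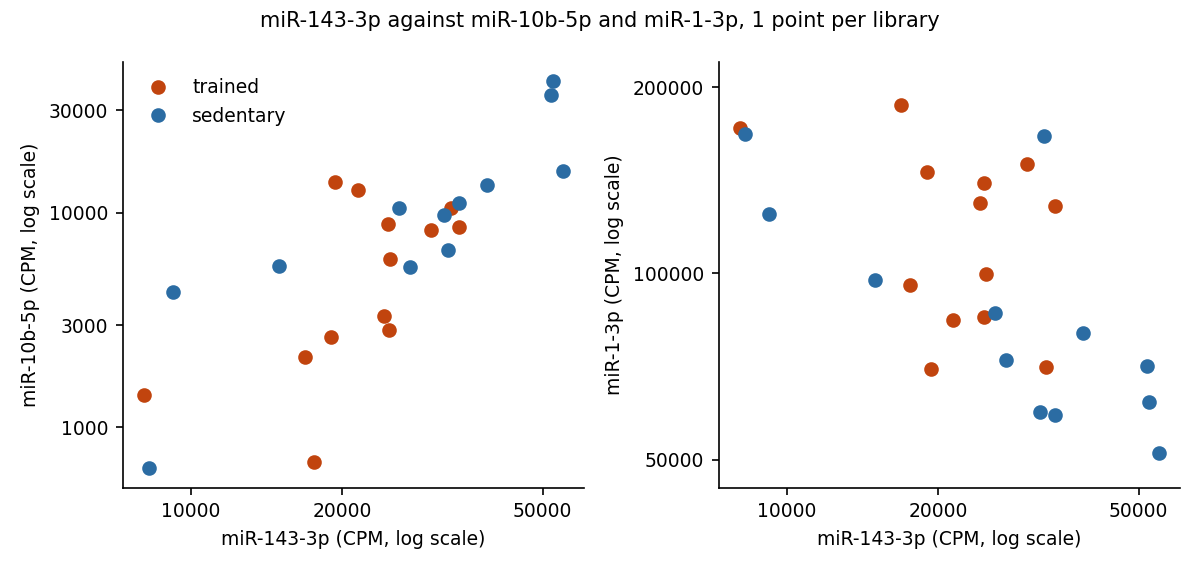
miR-10b-5p (left) and miR-1-3p (right) against miR-143-3p in CPM, on log scales, with 1 point per library (13 trained, 12 sedentary). miR-10b-5p follows miR-143-3p with a rho of 0.77, and miR-1-3p runs against it with a rho of -0.62.

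miR-126a-3p and miR-199a-3p, which mark endothelium and fibroblasts, gave weaker relations with miR-143-3p. Pearson's r was 0.39 for miR-126a-3p (permutation test, adjusted p = 0.161) and 0.37 for miR-199a-3p (adjusted p = 0.161). For miR-126a-3p it was 0.27 within trained and 0.41 within sedentary libraries, and -0.12 for rat numbers 1 to 13 against 0.71 for numbers 14 to 32. For miR-199a-3p it was 0.07 within trained and 0.59 within sedentary libraries, and 0.10 without trained 21 and sedentary 29.

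Other miRNAs that act in the switch of vascular smooth muscle between its contractile and its growing state did not pass the test of training either. Of 17 listed, the members left out, 12 had a count and 9 were tested with edgeR. Their log2 fold changes, trained minus sedentary, were positive for 5 and negative for 4, with a median of 0.16 and a range of -1.25 to 0.65, and 0 passed. Among the positive ones, miR-1-3p and miR-133a-3p are also on the myofibre list, and the median is the value of miR-133a-3p. Over all 76 tested miRNAs, 37 were positive and 39 negative, with a median of -0.01. miR-21-5p, which is linked to smooth muscle growth, was lowest at -1.25 (SE 1.04, adjusted p = 0.916), and miR-1-3p, reported to restrain the growth of cultured vascular smooth muscle cells, was at 0.60 (SE 0.36, adjusted p = 0.916). miR-221-3p and miR-222-3p, which act in growing smooth muscle, had a count in 16 libraries each and were left out by the filter on low counts. In the permutation test over 260 miRNAs their adjusted p was 1 for miR-221-3p and 0.971 for miR-222-3p.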

How the data were processed

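Small RNA reads were trimmed with fastp 0.20.0, per the submitters' processing notes, which also name DESeq2 1.36. The authors deposited raw counts per mature miRNA, in which empty cells were read as 0, and normalized values, a signal equal to the count divided by 1 factor per library (largest relative deviation 1.59e-09). The sources used here do not give the aligner, counter, strand setting, treatment of multiple matches or build.

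Counts were tested over the whole table by quasi-likelihood in edgeR 4.0.16 (R 4.3.3) with TMM factors. filterByExpr (minimum count 10, minimum total 15) kept 76 of 764 rows. Benjamini-Hochberg adjusted p below 0.05 was the threshold. Within-library measures were compared by two-sided permutation tests of 100000 resamples (numpy 2.4.6), exact in the subsets by rat number, and detection by Fisher's exact test (scipy 1.17.1). Tests were tried on simulated data. The simulated counts for edgeR varied less than the counts of these libraries, so that trial does not show what the test can detect here. Alternatives were DESeq2 1.42.0, limma-voom (limma 3.58.1), other scalings, filters and pseudocounts, a depth covariate, ranges of rat numbers and leaving out each library.

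The permutation test over 260 rows, the detection test, leaving out libraries for the scarce members' CPM and for the ratio of the guides, the rank with near-identical rows counted once and likeness without the libraries rich in miR-145-5p were chosen after seeing the data. The members, the lists and the rule for named miRNAs (the members, the 3 most like miR-143-3p and the least like it, and miRNAs a result turns on) were chosen with earlier results of these data known. RefSeq held a mature sequence for 687 of the 764 rows. Libraries of a group carry different rat numbers, but separate litters or batches are not given, so p-values measure the spread between these libraries.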

Additional observations from a re-analysis of the deposited data

How the results depend on the processing

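The difference in miR-143-3p did not pass under any setting run, and its log2 fold change was below 0 in all except for rat numbers 14 to 32 and without sedentary 32 (0.0059); leaving out each library gave -0.24 to 0.0059. The count of called miRNAs was 0 in the settings run except without a filter on low counts, where it was 66 of 260; none of these calls is used for the members apart from the value given for miR-145-3p, and the cause was not tested. The share of miR-145 in the cluster lost its call in each range of rat numbers, at -0.224 (1 to 13) and -0.511 points (14 to 32), where fewer libraries enter. The log2 ratio of miR-143-3p to miR-145-5p passed for rat numbers 14 to 32, at 3.18 (adjusted p = 0.0117), and ran from 1.30 to 2.00 when each library was left out; the cause was not tested. The correlation of miR-143-3p with miR-1-3p fell short on the authors' normalized values, at -0.37; the cause was not tested. Apart from leaving out single libraries, the other 46 values under an alternative kept their side of the threshold or stayed within the spread between libraries. The miR-145-5p log2 fold change was -4.33 in edgeR without the filter (SE 1.90, adjusted p = 0.0839) and -4.55 in DESeq2 (SE 1.72, adjusted p = 0.850), and that of miR-143-5p 0.87 (SE 1.85) and 2.81 (SE 2.96). These are fitted to libraries mostly at 0. No paired analysis was possible because trained and sedentary rats share no number. Depth limits the scarce members: a library at 0 can hold up to 246 CPM.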
